A study of Mus musculus with 5 samples.

Results

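The interferon gamma-inducible GTPases of the guanylate-binding protein (GBP) and immunity-related GTPase (IRG) families were followed in mouse colon 3 hr after an injection of NT-3N, together with the chemokine gene Cxcl9, a classical target of interferon gamma. The 10 genes were chosen by name, as Gbp2, Gbp3, Gbp4, Gbp6, Gbp7, Irgm1, Irgm2, Igtp, Iigp1 and Cxcl9. They were 10 of 32917 features tested, 17942 of which carried a gene symbol. All 10 genes had a named probe, each probe was well above background on all 5 arrays, and only Irgm1 had more than 1 probe, with 3.

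RNA of the whole colon was hybridised to 5 single-colour arrays, each with the RNA of 1 wild-type C57BL/B6 mouse, which the study describes as 8-week-old. The 2 Control arrays held mice labelled as controls, and the 3 NT-3N arrays held mice that had received NT-3N, a modified human IL-11 that activates the IL-11 receptor, by the intravenous route, with the colon taken 3 hr later. The sources differ in the unit of the dose, and no source used here mentions a vehicle injection for the controls, so injection and agonist cannot be told apart. The share of the 56605 probes that stood well above background was 70.6% to 72.9% per array, with no saturated spot. All listed epithelial, smooth muscle and fibroblast markers stood well above background on all 5 arrays. Whole tissue was measured, in which a change in the number of cells and a change in RNA per cell cannot be told apart.

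GBPs are large GTPases that assemble on the vacuoles and surfaces of intracellular microbes and help to open them to the cytosol. IRGs fall into regulators, to which Irgm1, Irgm2 and Igtp (also called Irgm3) belong, and effectors such as Iigp1 (also called Irga6). The regulators sit on membranes of the host and keep the effectors from acting there, while the effectors coat and disrupt vacuoles that hold parasites or bacteria. Genes of both families are induced by interferon gamma, whose signal reaches promoters through the GAS motif, and by type I interferons, whose signal reaches them through the ISRE motif.

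Both motifs were looked for in the promoters of the members. RefSeq windows of GRCm38.p6 that run from 250 bases before to 50 bases after the transcription start were at hand for 7 members, in 8 windows. GAS was spelled TTCNNNGAA and the ISRE core GAAANNGAA, and each was searched on both strands. A GAS match was present in 8.3% of all 32851 windows, an ISRE core match in 8.56%, and both in 1.07%. All 7 members had an ISRE core match in at least 1 window, and 3 of them, Gbp7, Igtp and Irgm2, had a GAS match as well. Of the 2 windows of Gbp3, one had 2 ISRE core matches and the other had none. Windows of 5 members are shown in lower case with the matches in capitals: Gbp2, whose signal was higher under NT-3N, Irgm1, whose signal was lower, and Irgm2, Igtp and Gbp7, whose groups overlapped. The windows lie at chr3:142620413-142620712, plus strand, for Gbp2, at chr11:48871371-48871670, minus strand, for Irgm1, at chr11:58214727-58215026, plus strand, for Irgm2, at chr11:58199306-58199605, plus strand, for Igtp, and at chr3:142530086-142530385, plus strand, for Gbp7.
Gbp2: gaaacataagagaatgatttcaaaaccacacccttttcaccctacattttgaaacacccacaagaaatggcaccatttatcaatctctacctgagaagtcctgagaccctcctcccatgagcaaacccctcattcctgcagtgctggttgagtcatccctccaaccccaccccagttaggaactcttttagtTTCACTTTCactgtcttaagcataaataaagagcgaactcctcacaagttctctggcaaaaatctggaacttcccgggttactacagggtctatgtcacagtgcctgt
Irgm1: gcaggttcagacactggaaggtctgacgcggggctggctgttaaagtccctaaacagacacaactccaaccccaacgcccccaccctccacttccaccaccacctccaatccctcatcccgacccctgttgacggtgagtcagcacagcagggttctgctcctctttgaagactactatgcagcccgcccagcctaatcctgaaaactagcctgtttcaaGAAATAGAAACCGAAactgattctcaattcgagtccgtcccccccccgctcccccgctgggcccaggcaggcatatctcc
Irgm2: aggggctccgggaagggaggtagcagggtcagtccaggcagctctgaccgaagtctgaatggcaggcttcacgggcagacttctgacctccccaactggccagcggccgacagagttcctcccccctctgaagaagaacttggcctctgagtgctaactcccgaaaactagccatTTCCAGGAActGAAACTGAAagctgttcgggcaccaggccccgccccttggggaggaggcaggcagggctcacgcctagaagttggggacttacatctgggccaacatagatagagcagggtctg
Igtp: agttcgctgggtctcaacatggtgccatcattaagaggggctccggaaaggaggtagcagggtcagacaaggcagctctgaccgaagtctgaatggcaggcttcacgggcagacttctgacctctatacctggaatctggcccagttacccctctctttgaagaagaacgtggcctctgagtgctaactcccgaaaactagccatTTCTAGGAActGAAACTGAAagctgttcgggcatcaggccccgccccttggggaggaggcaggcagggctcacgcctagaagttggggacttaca
Gbp7: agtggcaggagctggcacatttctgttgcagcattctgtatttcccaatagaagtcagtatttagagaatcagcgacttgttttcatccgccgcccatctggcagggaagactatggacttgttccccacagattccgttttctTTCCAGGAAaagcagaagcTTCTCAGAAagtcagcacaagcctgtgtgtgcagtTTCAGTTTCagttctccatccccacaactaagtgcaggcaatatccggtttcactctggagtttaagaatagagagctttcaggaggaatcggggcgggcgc

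Gbp2 held 1 ISRE core match on the opposite strand, 58 bases before the start. Irgm1 held 2 ISRE core matches on the coding strand, 30 and 24 bases before the start, which shared 3 bases. Irgm2 and Igtp had the same arrangement, a GAS match followed after 2 bases by an ISRE core match, which began 64 and 34 bases before the start. Gbp7 held 2 GAS matches and 1 ISRE core match. Gbp2, Irgm1, Gbp3 and Cxcl9 held ISRE core matches without a GAS match, whatever their values on the arrays. Windows for Iigp1, Gbp4 and Gbp6 were not analysed here. A match says only where these letters stand and nothing about the binding of a factor.

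**Figure D1:**
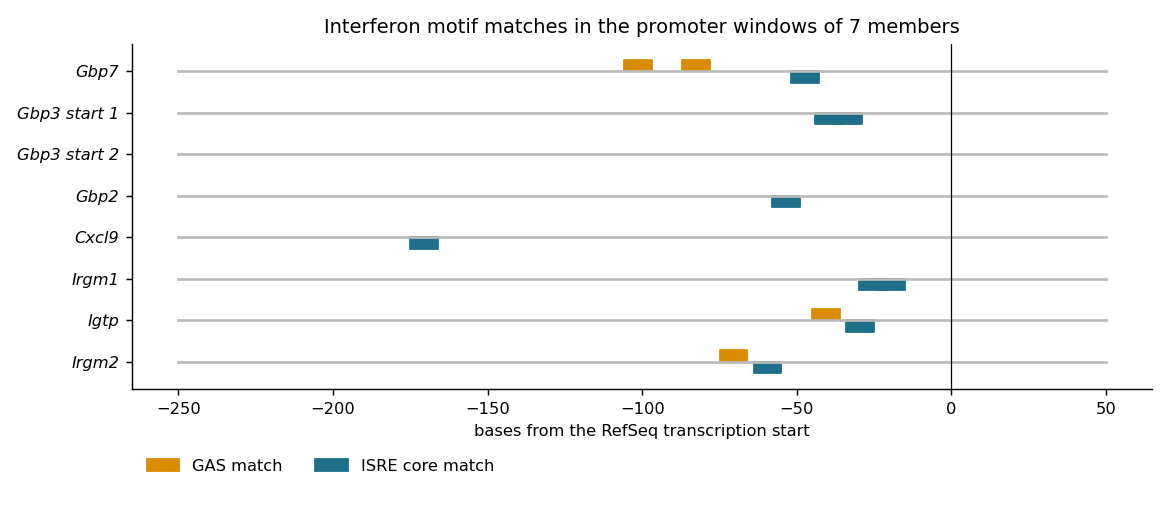
GAS matches (orange, above the line) and ISRE core matches (blue, below the line) in 8 promoter windows of 7 members, placed by their distance in bases from the RefSeq transcription start at 0. The matches lie upstream of the start, from 175 bases away in Cxcl9 to 24 bases away in Irgm1, and the other Gbp3 window has none.

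The comparison of NT-3N with Control asked which genes of the colon respond to IL-11 receptor signalling. The members did not move as a group. Iigp1 and Gbp2 were higher on all 3 NT-3N arrays than on both Control arrays, Irgm1 was lower on all 3, Gbp4 was slightly higher on all 3, and the arrays of the other 6 members overlapped. No member passed the threshold of an adjusted p under 0.05 in limma, which 0.143% of all features passed. In the local-pooled-error test 3 members passed it, as did 1.06% of all features. That test takes its variance from features of like signal, not from the spread of the gene itself between mice. At an unadjusted p under 0.05 in limma there were 3 members of 10, against 9.62% of all features. With a change of at least 2-fold in addition there were 2 members higher, against 0.793% of all features, and 0 members lower, against 0.51%. The groups did not overlap for 4 members of 10, against 28.4% of all features. The median log2 change was 0.00 over the members and −0.02 over all features, and 5 members had a mean above that of the controls and 5 below it.

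Gbp2, a GBP that is recruited to the vacuole of Toxoplasma, had quantile-normalized log2 signals of 10.64 and 10.63 on the Control arrays and of 12.16, 11.57 and 11.68 on the NT-3N arrays. The controls lay together, and each NT-3N array was well above them. The mean was 10.63 in the controls and 11.81 under NT-3N on the log2 scale, a log2 difference of 1.17 ± 0.18 (SE), or 2.26-fold, with a 95% interval from 0.74 to 1.61. The unadjusted p was 0.000468 in limma, and the adjusted p of 0.111 missed the threshold. Over the alternatives the adjusted p ranged from 0.00248, in the local-pooled-error test, to 0.529. An exact permutation test over the arrays gave p = 0.1, the smallest that 2 against 3 arrays can give.

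The other 4 GBPs did not differ beyond the spread of the arrays. Gbp4 read 7.58 and 7.56 in the controls against 8.11, 7.61 and 7.67 under NT-3N on the log2 scale, so the groups were apart, but NT-3N replicates 2 and 3 stood within 0.11 of the controls. Its log2 difference was 0.23 ± 0.18 (SE). Gbp3 read 9.88 and 10.31 against 10.52, 9.62 and 10.03, with NT-3N arrays both above and below the controls and a difference of −0.04 ± 0.27 (SE). Gbp7 read 7.76 and 8.40 against 8.37, 7.95 and 7.87, with every NT-3N array between the controls and a difference of −0.01 ± 0.24 (SE). Gbp6 read 7.52 and 9.01 against 8.38, 7.29 and 7.68. Its controls were 1.49 apart, more than the log2 difference between the groups of −0.48 ± 0.49 (SE). The 95% intervals of these log2 differences were −0.21 to 0.66 for Gbp4, −0.69 to 0.62 for Gbp3, −0.59 to 0.56 for Gbp7 and −1.66 to 0.70 for Gbp6, of which only that of Gbp6 reached 2-fold.

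Iigp1, the effector of the IRG members, had the largest difference of the 10 genes. Its log2 signal was 8.41 and 8.82 on the Control arrays and 10.77, 10.12 and 10.07 on the NT-3N arrays, with a gap of more than 1 log2 unit between the groups. The log2 difference was 1.71 ± 0.25 (SE), or 3.26-fold, with a 95% interval from 1.11 to 2.30. The unadjusted p was 0.000348 and the adjusted p 0.0931 in limma. Over the alternatives the adjusted p ranged from 0.00924, in the local-pooled-error test, to 0.545.

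The regulators of the IRG family split. Irgm1 had log2 signals of 12.12 and 12.66 on the Control arrays and of 11.82, 10.99 and 11.59 on the NT-3N arrays. All 3 NT-3N arrays were below both controls, with NT-3N replicate 1 only 0.30 below Control replicate 1. The log2 difference was −0.93 ± 0.27 (SE), with a 95% interval from −1.57 to −0.28, and the signal under NT-3N was 0.526 of that in the controls. In limma the unadjusted p was 0.0125 and the adjusted p 0.371. Over the alternatives that kept both controls, the adjusted p ranged from 0.00787, in the local-pooled-error test, to 0.653. Without Control replicate 2 the log2 difference was −0.66, with an unadjusted p of 0.0833. The further probes of Irgm1 gave log2 differences of −0.86 and −0.98, also with no overlap of the groups, so all 3 probes of the gene went the same way. The 3 probes read the same RNA and are not replicates of the comparison.

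Irgm2 had log2 signals of 12.04 and 12.47 in the controls against 12.51, 11.99 and 12.32 under NT-3N, a difference of 0.01 ± 0.19 (SE) with a 95% interval from −0.44 to 0.47. Igtp had log2 signals of 12.34 and 13.00 against 12.85, 12.03 and 12.41, a difference of −0.24 ± 0.28 (SE) with a 95% interval from −0.91 to 0.44. In both genes the lowest array was NT-3N replicate 2, and the NT-3N arrays lay on both sides of Control replicate 1. Cxcl9, which encodes a ligand of the chemokine receptor CXCR3 that draws in T cells, had log2 signals of 4.88 and 5.75 against 5.96, 5.13 and 4.97. Its difference of 0.04 ± 0.40 (SE) had a 95% interval from −0.92 to 1.00, which nearly spans 2-fold in both directions.

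**Figure D2:**
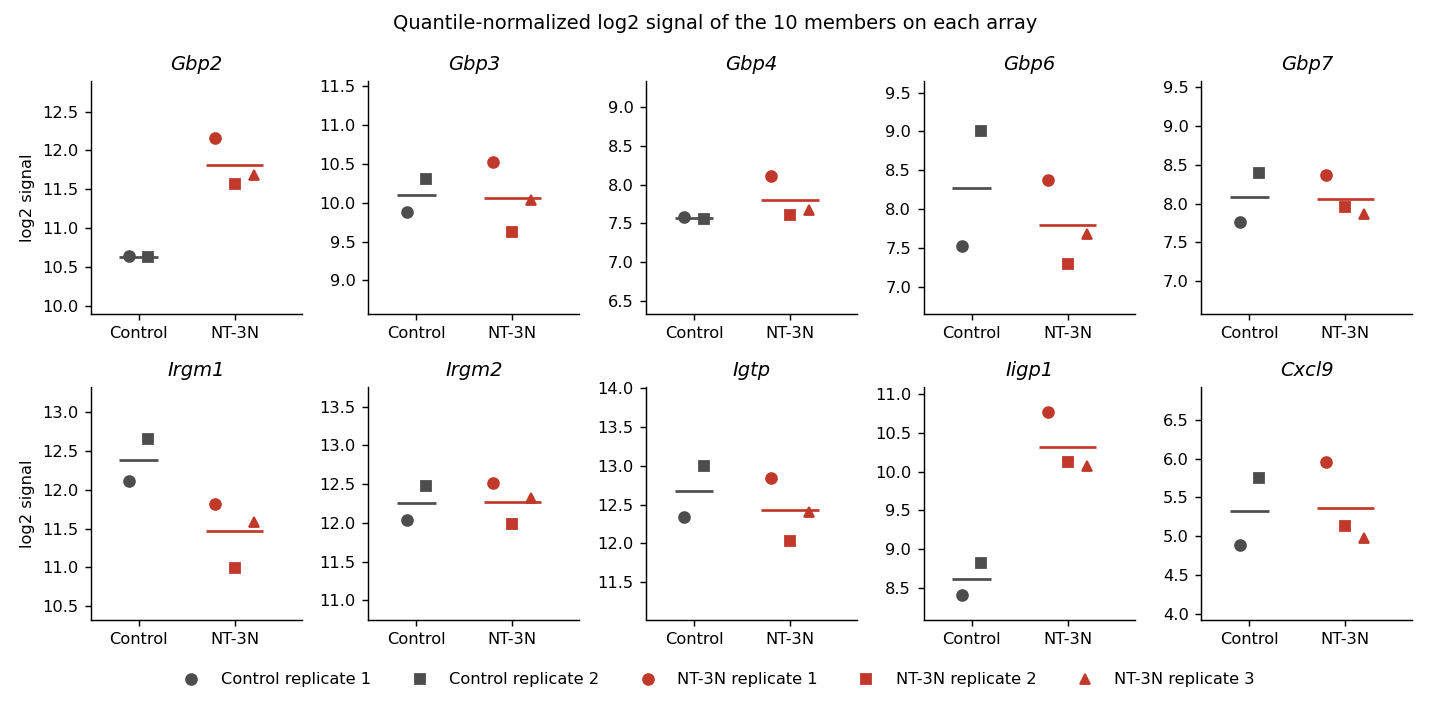
Quantile-normalized log2 signal (y axis) of the 10 members on the 2 Control arrays (grey) and the 3 NT-3N arrays (red), with a horizontal line at each group mean and the same span of log2 units in every panel. Gbp2 and Iigp1 are higher on all 3 NT-3N arrays, Irgm1 is lower on all 3, and the points of Gbp3, Gbp6, Gbp7, Irgm2, Igtp and Cxcl9 overlap between the groups.

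The members varied together from mouse to mouse within the groups. NT-3N replicate 1 was the highest of the NT-3N arrays for 10 of 10 members, an order that 38.6% of all features showed, and NT-3N replicate 2 was the lowest for 7 members, against 29.8% of all features. Control replicate 2 was above Control replicate 1 for 8 members, against 47.8% of all features. The members are linked genes of one response, so these counts describe single mice and not 10 independent genes. For 6 members the difference between the groups was smaller than the gap between the 2 controls. The summed signal of the T and NK cell markers was also highest on NT-3N replicate 1, at 9222 against 6116 to 7315 on the other arrays, and its part in the order of the arrays was not tested. NT-3N replicate 1 was also the array with the lowest quality weight, 0.409, against 1.12 to 1.70 on the others.

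Leaving out 1 array at a time kept the log2 difference of Gbp2 between 1.00 and 1.29, that of Iigp1 between 1.48 and 1.91 and that of Irgm1 between −1.19 and −0.66. Without NT-3N replicate 1, Gbp2 and Iigp1 passed an adjusted p under 0.05 in limma, at 0.031 and 0.049. Gbp6 depended on single mice, with a log2 difference of −1.22 without Control replicate 1 and 0.26 without Control replicate 2. Gbp3, Gbp7, Irgm2, Igtp and Cxcl9 also changed sign on leaving out 1 array.

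**Figure D3:**
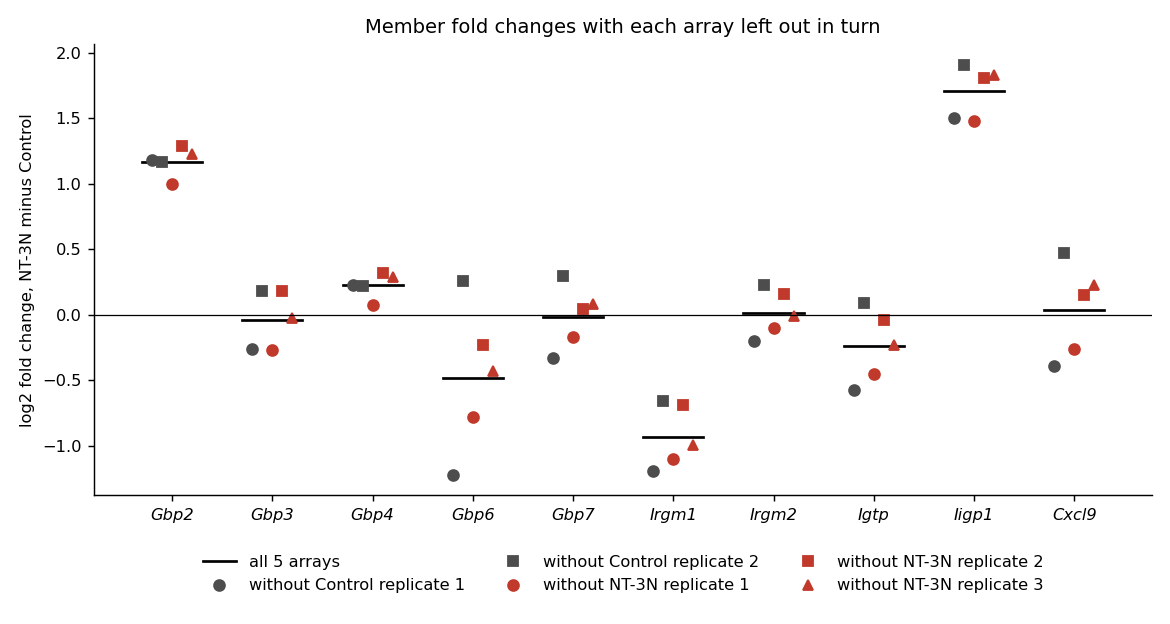
Log2 fold change of each member, NT-3N minus Control, over all 5 arrays (black line) and with each array left out in turn (grey for a Control array, red for an NT-3N array). Gbp2, Gbp4 and Iigp1 stay above 0 and Irgm1 stays below 0 in all 5 cases, whereas the points of the other 6 members lie on both sides of 0.

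Differences between 2 members within an array remove only what moves both alike on that array, and they were taken after the values had been seen. The log2 step from Control replicate 1 to Control replicate 2 was −0.01 for Gbp2 and −0.02 for Gbp4. It was 0.64 for Gbp7 and 1.49 for Gbp6, so the ratios of Gbp2 to these genes carry that step. Relative to the control mean, the log2 ratio of Gbp2 to Gbp7 was 1.24, 1.07 and 1.26 on the NT-3N arrays and 0.32 and −0.32 on the Control arrays. The log2 ratio of Gbp2 to Gbp4 was 0.99, 0.90 and 0.95 on the NT-3N arrays and within 0.01 of the mean on the controls, a narrow spread in both groups. Each of the 4 ratios that involve Gbp2 was apart between the groups, and each of the other 6 ratios among the GBPs overlapped. The log2 ratio of Irgm1 to Irgm2 was −0.82, −1.13 and −0.87 on the NT-3N arrays against −0.05 and 0.05 on the controls, and that of Irgm1 to Igtp was −0.76, −0.76 and −0.54 against 0.06 and −0.06. The ratio of the regulator Irgm1 to the effector Iigp1 changed most, by −2.63 on the log2 scale. Of 6 ratios among the IRGs, only that of Irgm2 to Igtp overlapped between the groups. The 9 ratios that were apart all involve Gbp2, Iigp1 or Irgm1, whose own arrays were apart, so they describe these genes again. Each had p = 0.1 in an exact permutation test over the arrays, the smallest that 2 against 3 arrays can give.

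The other GTPases of these families also went both ways. Of 20 listed genes, 14 were tested, with 6 higher and 8 lower means under NT-3N and a median log2 difference of −0.14. None passed an adjusted p under 0.05 in limma over the 5 arrays, and 1, Ifi47, did in the local-pooled-error test. Without NT-3N replicate 1, Gbp5 passed it in limma, at 0.0347, as Gbp2 and Iigp1 did among the members. At an unadjusted p under 0.05 in limma, 3 were higher and 4 lower, against 9.62% of all features in either direction. Gbp5, which promotes inflammasome assembly, had log2 signals of 7.30 and 7.21 in the controls against 9.56, 8.51 and 8.60 under NT-3N, and its difference of 1.64 ± 0.32 (SE) was the nearest in size to that of Iigp1, with an adjusted p of 0.192 in limma. Gm4951, a predicted IRG gene, read 7.53 and 7.48 against 9.04, 8.34 and 8.04, with every NT-3N array above both controls and an adjusted p of 0.378. Tgtp2, an IRG effector, read 9.72 and 9.87 against 10.52, 10.01 and 10.21, a smaller difference of 0.45 ± 0.16 (SE). Gm4951 and Tgtp2, like Ifi47 and F830016B08Rik among the lower genes, lie outside the naming rule and were named after their values were seen.

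Among the lower genes, Gm12250 (also called Irgb10), an effector that attacks bacterial membranes, read 9.15 and 9.82 in the controls against 9.18, 7.61 and 8.39 under NT-3N. On this brightest probe NT-3N replicate 1 overlapped the controls. The log2 difference was −1.09 on the brightest probe and −1.43 for the mean of the gene's probes. Gm5431 read 8.51 and 9.05 against 8.42, 7.20 and 7.68, with a difference of −1.01 ± 0.36 (SE). Ifi47, an IRG effector also called Irgd, read 12.01 and 12.50 against 12.00, 10.65 and 11.37, with NT-3N replicate 1 only 0.01 below Control replicate 1. F830016B08Rik, a predicted GTPase gene, was lower by a smaller step, with a log2 difference of −0.31 ± 0.11 (SE). The counts for this list depended on the mice, since without NT-3N replicate 2 the genes lower at an unadjusted p under 0.05 went from 4 to 0 and the higher ones numbered 3. Without Control replicate 2 there was 1 higher and 1 lower, and without Control replicate 1 or without NT-3N replicate 3 there were 2 higher. For Gbp8, Gbp9 and Gbp10 the groups overlapped, with log2 differences of 0.04, −0.16 and 0.01. Near-identical copies in these families can share a probe's target, so the split between copies is uncertain.

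**Figure D4:**
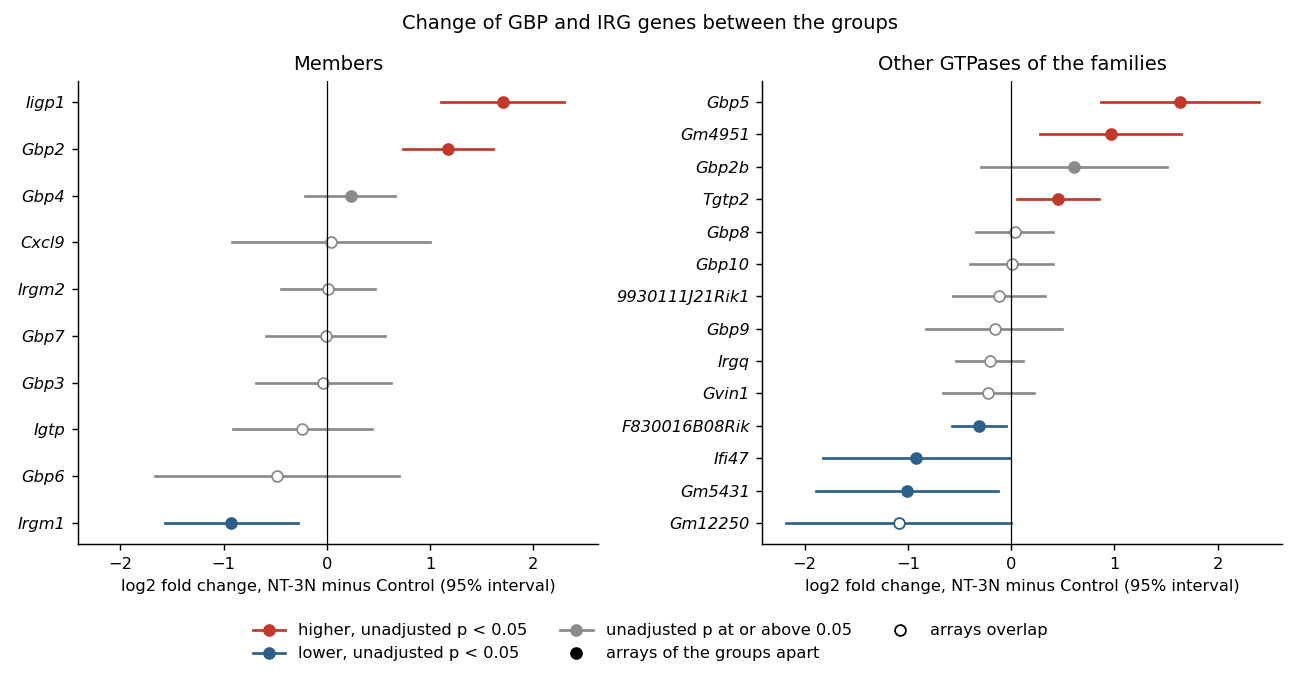
Log2 fold change, NT-3N minus Control, with its 95% interval from limma, for the 10 members (left) and for the 14 tested genes on the list of other GTPases (right). Red and blue mark an unadjusted p under 0.05, filled points mark groups that do not overlap, and the genes spread from Iigp1 at 1.71 and Gbp5 at 1.64 to Gm12250 at −1.09.

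Upstream of the members, the genes of the interferon gamma path given here differed little between the groups. The probe for Ifng, the cytokine itself, exceeded background clearly on 1 of 2 Control arrays and on 0 of 3 NT-3N arrays, so it was not tested. The receptor chains Ifngr1 and Ifngr2 had log2 differences of 0.12 ± 0.08 and −0.05 ± 0.12 (SE), and the receptor-bound kinases Jak1 and Jak2 of 0.21 ± 0.08 and −0.10 ± 0.13 (SE). Irf1, a transcription factor that interferon gamma induces early, differed by −0.14 ± 0.12 (SE), and Socs1, an inhibitor of the kinases that the same path induces, by 0.01 ± 0.23 (SE). Over 11 tested genes of this list the median log2 difference was 0.01, with Jak1 and the phosphatase gene Ptpn2 higher at an unadjusted p under 0.05 in limma and 0 lower. Ptpn2 was named after its value of 0.33 ± 0.09 (SE) was seen.

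Other targets of interferon gamma were near the controls. Of 18 tested targets, among them the immunoproteasome, peptide transporter and class II genes, 12 had higher and 6 lower means, the median log2 difference was 0.09, and 1 had an unadjusted p under 0.05 in limma. That gene was Ubd, a ubiquitin-like modifier, which read 8.23 and 7.51 in the controls against 8.42, 8.58 and 8.79 under NT-3N. It was named after its value was seen. Of 11 tested cytokines and receptors that act upstream of interferon gamma, Il18 was called at an unadjusted p under 0.05 and at least 2-fold. Il18, which with IL-12 elicits interferon gamma from T and NK cells, read 12.48 and 11.82 in the controls against 13.05, 13.46 and 13.41 under NT-3N, all above both controls. Its log2 difference was 1.15 ± 0.22 (SE), with an adjusted p of 0.182 in limma. Over the alternatives the adjusted p ranged from 1.5e-08, in the local-pooled-error test, to 0.62. The lowest value outside that test was 0.0691, with array quality weights in limma. Of 15 genes that load GTPases onto membranes or act beside them, 0 were called at that level in limma and the log2 differences ran from −0.15 to 0.45. Casp4, the caspase that senses bacterial lipopolysaccharide, at 0.45 ± 0.10 (SE), and the autophagy gene Map1lc3b, at 0.24 ± 0.07 (SE), had an unadjusted p under 0.05 and were named for it.

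Genes induced mainly by type I interferon had lower means under NT-3N. This held for 17 of 17 tested genes of that list, with a median log2 difference of −1.33. At an unadjusted p under 0.05 in limma and at least 2-fold, 7 were lower, against 0.51% of all features. None passed an adjusted p under 0.05 in limma, and 13 did in the local-pooled-error test, against 1.06% of all features. That test does not use a gene's own spread between mice, which for Isg15 under NT-3N was a standard deviation of 1.28. Rsad2, an antiviral enzyme, read 10.67 and 11.74 in the controls against 10.17, 7.85 and 9.47 under NT-3N. Ifit1, which binds viral RNA, read 12.01 and 12.41 against 11.69, 9.11 and 10.55, and Isg15, a ubiquitin-like modifier, read 14.77 and 15.31 against 14.44, 11.90 and 13.53. In each of them NT-3N replicate 2 was far below the others and NT-3N replicate 1 was close to the controls. Ifit2, Usp18 and Cmpk2 had log2 differences of −1.80, −1.93 and −1.33, and the 7 called genes also included Bst2, at −1.02. Without Control replicate 2 the median was −0.99 and 0 of the 17 genes had an unadjusted p under 0.05. Without NT-3N replicate 2 the median was −0.81 and 7 did, and without NT-3N replicate 1 it was −1.75 and 17 did.

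Irgm1 went with this list and Gbp2 and Iigp1 did not. The mean of the 17 genes, each centred on its own mean over the 5 arrays, was 0.41 and 1.06 on the Control arrays and 0.39, −1.45 and −0.42 on the NT-3N arrays. Irgm1, Ifi47, Gm5431 and Gm12250 had the same order of arrays, highest on Control replicate 2 and lowest on NT-3N replicate 2 and, except for Gm12250, with NT-3N replicate 1 below Control replicate 1. Gbp2, Iigp1 and Gbp5 were lowest on the Control arrays and highest on NT-3N replicate 1. Igtp and Gbp6 were also highest on Control replicate 2 and lowest on NT-3N replicate 2, with groups that overlapped. These groups of genes were formed after the values had been seen, and with 5 arrays no correlation was computed.

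**Figure D5:**
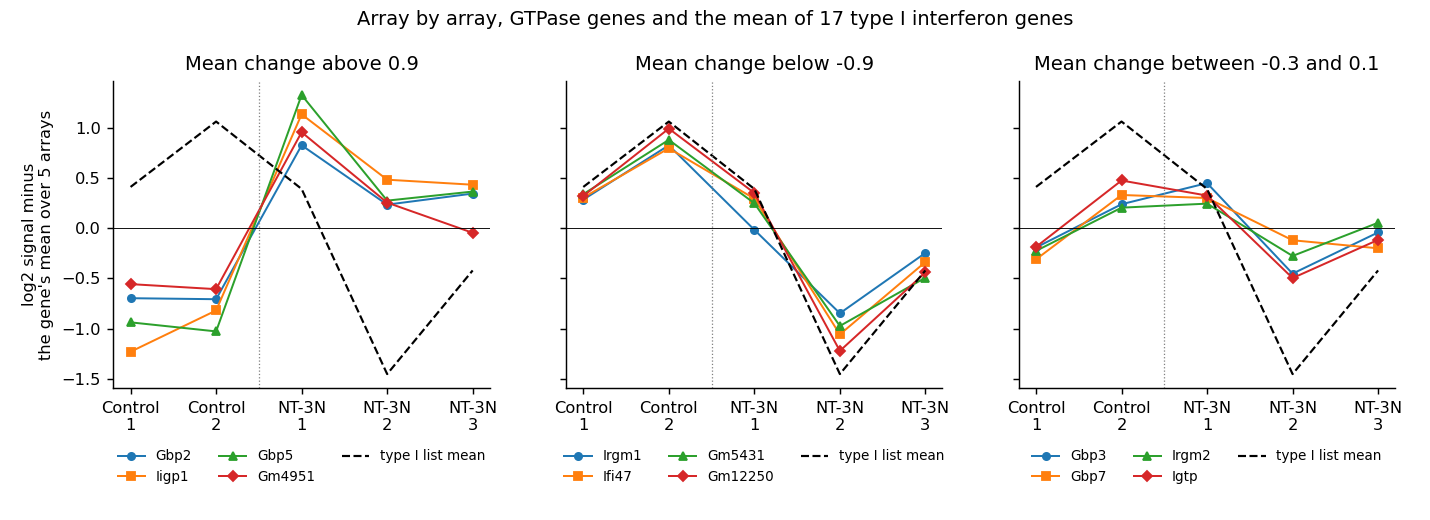
Log2 signal on each array minus the gene's mean over the 5 arrays, for 4 GTPase genes with a mean change above 0.9 (left), 4 below −0.9 (middle) and 4 of the members between −0.3 and 0.1 (right), with the mean of 17 type I interferon genes as a dashed line in each panel. In the middle panel the genes and the dashed line have their lowest point on NT-3N replicate 2, whereas in the left panel all 4 genes lie below 0 on both Control arrays.

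Few markers of the cells that express the GTPases or make interferon gamma had an unadjusted p under 0.05. Of 11 tested T and NK cell markers, 0 had an unadjusted p under 0.05 in limma, the log2 differences ran from −0.20 to 0.36, and their summed signal was 6695 to 7315 in the controls and 6116 to 9222 under NT-3N. The probe for the NK cell receptor Ncr1 was not above background on any array. Of 8 macrophage markers, Mrc1 alone had an unadjusted p under 0.05, at a log2 difference of 0.53, with a summed signal of 9843 to 10450 against 8636 to 12046. Of 6 endothelial and 10 epithelial markers 0 did, with summed signals of 2877 to 3176 against 3016 to 3593 and of 946993 to 952954 against 856294 to 992414. Of 6 fibroblast markers, Dcn had an unadjusted p under 0.05 in limma, at a log2 difference of 0.32, and the summed signal was 59725 to 62839 against 52671 to 75274.

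Some markers of other cells did differ between mice. The 6 smooth muscle markers all had lower means under NT-3N, with summed signals of 417239 to 435420 against 311901 to 392251. Of them 3 (Myocd, Myh11 and Tagln) had an unadjusted p under 0.05 in limma, against 9.62% of all features in either direction. B cell markers summed to 1138 on Control replicate 2 against 4382 to 5182 on the other arrays, and Ms4a1, which encodes the B cell surface protein CD20, read 4.95 and 6.53 in the controls against 9.54, 9.13 and 9.51 under NT-3N. Fat markers summed to 2251 on NT-3N replicate 3 and to 18658 on Control replicate 1, with overlap of the groups. The part of these cells in the values of the members was not tested.

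By distance over the 5 arrays to the mean centred profile of the 10 members, the most similar of 16724 other genes were Nlrc5, Slc22a8, Gm10190, Ssc4d, H3c11, Trpc4, Ctnna2 and Gm15446, at distances of 0.14 to 0.19 log2 units. Nlrc5, which drives class I antigen presentation genes and is a known interferon gamma target, came first, with Slc22a8 at the same rounded distance of 0.14. The centred values of Nlrc5 were −0.31 and 0.18 on the Control arrays and 0.54, −0.24 and −0.16 on the NT-3N arrays. The mean profile of the members was −0.36, 0.18, 0.47, −0.25 and −0.05 in the same order. That profile averages members that went opposite ways, so the nearest genes of single members were also listed, a step added after the values had been seen. For Gbp2 they were Rnd1, Hdc, Hcar2, Slc5a9 and Adam32, at 0.17 to 0.29. For Iigp1 they were Steap4, Gbp5, Ifi205, Thbs1 and Mt2, at 0.45 to 0.54. For Irgm1 they were Lgals9, H2-Bl, Apol7a, Bst2 and Cmtm5, at 0.20 to 0.33. Over 5 arrays many genes share a profile, so nearness is a description of these mice.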

How the data were processed

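Colon RNA of 5 mice was hybridised to Agilent SurePrint G3 arrays with 1 colour. The authors extracted spots with Agilent Feature Extraction 11.0.1.1, per the submitters' processing notes, and the deposited scanner files give background-subtracted, detrended intensity, not scaled between arrays. The deposited log2 table, quantile-normalized by the authors, was used as an alternative and correlated with the scanner values at 0.9999 or more.

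Control spots and outliers (69 to 184 of 59305 spots per array) were left out, intensity was log2-transformed and quantile-normalized, and probes well above background on at least 2 arrays were kept. Accessions matched RefSeq symbols (GRCm38.p6) for 32994 of 56605 probes; the brightest probe stood for a gene. NT-3N was set against Control in limma 3.58.1 under R 4.3.3 (intensity trend, two-sided, Benjamini-Hochberg over all features). The code was run on simulated data. These held independent features drawn from limma's own variance model, so they say nothing on genes that vary together. The study's methods name a local-pooled-error test, run as an alternative. All arrays shared 1 slide and scan, so neither could be a block. The number of arrays limits the precision.

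The members and lists were chosen with earlier results of these data known. Named were all members, up to 6 genes per list called at an adjusted p under 0.05 or at an unadjusted p under 0.05 with 2-fold, the main genes of interferon gamma signalling, and the 8 genes nearest to the members' mean profile. Alternatives covered scaling, background correction (normexp on the median spot signal), the deposited log2 values, the filter, the variance model, array weights, a replicate block, the test, probe choice and each array left out. Protein sequences were not used here, and 1 listed gene of the interferon gamma path is not reported here.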

Additional observations from a re-analysis of the deposited data

How the results depend on the processing

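At an adjusted p under 0.05, 47 features were called in all. The count was 2 with no filter on dim probes, 2 with no intensity trend, 167 with array quality weights, 348 with the local-pooled-error test, and between 0 and 118 on leaving out 1 array. Members called at that level numbered 0, but 2 with array quality weights (Gbp2 and Iigp1), 3 with the local-pooled-error test (also Irgm1), and between 0 and 2 on leaving out 1 array. Members called at an unadjusted p under 0.05 with 2-fold numbered 2, 3 with array quality weights (also Irgm1), and between 2 and 4 on leaving out 1 array. Without Control replicate 1, Gbp6 and Irgm1 joined Gbp2 and Iigp1, and without NT-3N replicate 1 the 2 were Iigp1 and Irgm1. List genes called higher that way numbered 3, but 5 with the local-pooled-error test and between 2 and 8 on leaving out 1 array. List genes called lower numbered 9, but 1 with no filter, 3 with no intensity trend, 2 with robust variance, 18 with array quality weights, 14 with the local-pooled-error test, and between 0 and 18 on leaving out 1 array. On leaving out a control, the lone control was assumed to vary like the other group.

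The labels link no mice between the groups, so the replicate numbers were not taken to pair them. The deviations of same-numbered arrays correlated at 0.13 and 0.036. With 2 controls, whose deviations mirror each other, this cannot exclude pairing. With the replicate block, 0 features were called in all and 0 list genes lower; Gbp2, Iigp1 and Irgm1 had log2 differences of 1.23, 1.83 and −0.99. Irgm1 lost its unadjusted call there.

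Of 630 values of 35 named genes, 29 changed sign, all in genes with no call over the 5 arrays, and 26 genes never did. Of the genes that did, Gbp6 was called lower without Control replicate 1. The cause was not tested. Gbp3 was 0.018 with normexp. Gbp7 was 0.082 with the block. Irgm2 was −0.089 with array weights and −0.01 with the block. Cxcl9 was −0.014 with 75th percentile scaling, −0.011 with normexp, −0.14 with array weights and −0.18 with the local-pooled-error test. Ifngr2 was 0.025 with the block, Jak2 0.018 with the mean of a gene's probes, and Socs1 −0.0023 with 75th percentile scaling and −0.02 with array weights. On leaving out 1 array, Gbp3 ran from −0.27 to 0.18, Gbp6 from −1.22 to 0.26, Gbp7 from −0.33 to 0.3, Irgm2 from −0.2 to 0.23, Igtp from −0.57 to 0.093, Cxcl9 from −0.39 to 0.47, Ifngr2 from −0.15 to 0.043 and Socs1 from −0.37 to 0.39.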
